A study of Mus musculus with 12 samples.

Results

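The alpha and beta crystallins are a group of 8 genes: the alpha crystallins Cryaa and Cryab, the acidic beta crystallins Cryba1, Cryba2 and Cryba4, and the basic beta crystallins Crybb1, Crybb2 and Crybb3. They were read out of 18194 genes measured on Affymetrix arrays in whole mouse corneas. Each gene is represented by the brightest of the probe sets that carry its symbol alone, where brightness is the mean over all 12 arrays. Cryab has 3 such probe sets and the other 7 genes have 1 each. All 8 passed the filter on low values that left 12706 genes for testing. That filter takes the mean over all 12 arrays, and Crybb1 passed it only through its high WT arrays. Its log2 level averaged 4.328, against a cut of 3.71. The probe sets were selected on mean intensity over the same arrays, and the genes were chosen with their differences between these arrays already known. The calls below thus describe the genes and are no independent evidence.

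All mice were of the C57BL/6J strain, and the samples are enucleated and dissected whole corneas. The 8 intact samples comprise 2 each of mice null for Dscr1 and Apoe (double KO), null for Dscr1 (Dscr1KO), null for Apoe (ApoeKO) and wild type (WT). The 4 sutured samples, 1 array each, are Dscr1KO at day 5, WT at day 5, mice with a Dscr1 transgene (Dscr1 Tg) at day 7 and WT at day 7. Dscr1, now named Rcan1, encodes an inhibitor of the phosphatase calcineurin, and Apoe encodes a cholesterol-carrying apolipoprotein. The sources used here do not give the promoter of the transgene, the age or sex of the mice, or whether samples were pooled. The labels call the intact samples biological replicates.

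Crystallins are the main soluble proteins of the lens, where their dense and stable packing keeps the tissue clear. The alpha crystallins belong to the small heat shock proteins and act as chaperones that bind unfolding proteins. The beta crystallins share a fold with the gamma crystallins and assemble into oligomers. Most of these genes are known for their high activity in lens cells, while Cryab is also active in many other tissues, including muscle, heart and cornea.

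The values are probe-set intensities on a linear scale, brought by the authors to a trimmed mean of 100 on each array, and array medians lay between 15.6 and 21.1. Changes are differences in log2(intensity + 3.6), with the 20th percentile of all values as pseudocount, and they understate the change of dim genes. Rcan1 read 379.6 and 331.7 in double KO, 477.5 and 335.9 in Dscr1KO, 668.2 and 581.3 in ApoeKO, and 630.4 and 649.5 in intact WT; in sutured corneas it read 479.1 in Dscr1KO and 663.6 in WT at day 5, and 548.3 in Dscr1 Tg and 579.7 in WT at day 7. The place of its probe set relative to the deletion is unknown here, so the remaining signal does not check the Dscr1 labels. Apoe read 32.5 and 22.7 in double KO, but 849.3 in the library labelled ApoeKO replicate 1, against 7.5 in ApoeKO replicate 2 and 1030.5 and 776.5 in intact WT. The library labelled Dscr1KO replicate 2 is called an Apoe null in another of its labels, and its Apoe level was 316.8, against 1272.0 in Dscr1KO replicate 1. Apoe lay between 905.9 and 1124.2 in the 4 sutured samples. The changes of the crystallins between intact genotypes are given with and without these 2 libraries. Without them Dscr1KO and ApoeKO have 1 array each, and each lone array is taken to vary like the double KO and WT pairs. Krt12, the keratin of corneal epithelium, read between 5291.1 and 10080.3 on all 12 arrays, so the labelled tissue is present in each.

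The group was bright on 3 arrays, both intact WT samples and WT at day 7 after suturing, and 7 of its 8 genes were much dimmer on the other 9. As log2 difference from the intact WT mean, the median of those 7 genes was -4.27 and -5.10 in the 2 double KO samples. It was -3.54 and -2.60 in the libraries labelled Dscr1KO, and -3.06 and -4.94 in the libraries labelled ApoeKO. In sutured corneas it was -4.78 in Dscr1KO and -2.96 in WT at day 5, and -2.51 in Dscr1 Tg and 0.18 in WT at day 7. Cryab followed another order, with ApoeKO well above Dscr1KO and double KO. Because each sample is bulk RNA, fewer lens cells and less crystallin RNA per cell cannot be told apart.

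**Figure D1:**
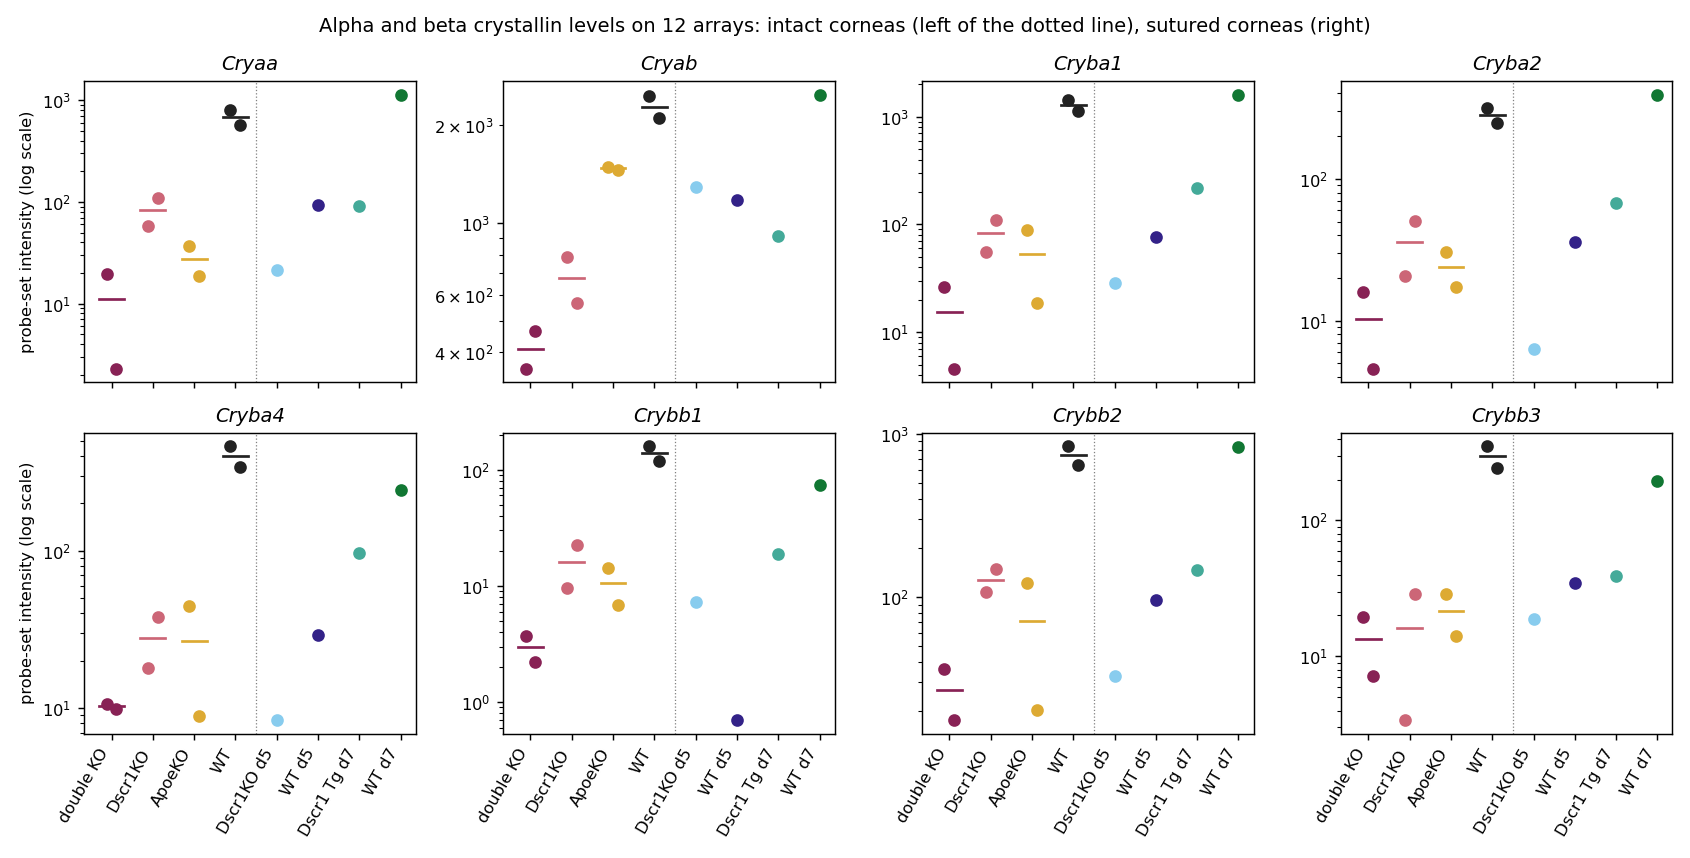
Probe-set intensity (log axis, own scale in each panel) of the 8 crystallins on 12 arrays, with each point 1 array and each bar the mean of 2 intact samples. The 2 intact WT samples and WT at day 7 sit at the top of every panel, as for Cryaa at 802.4, 573.7 and 1130.4, while the lowest Cryab value is 356.5.

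Cryaa, the alpha crystallin most restricted to lens, read 19.7 and 2.3 in double KO, 58.4 and 109.2 in Dscr1KO, 36.9 and 18.5 in ApoeKO, and 802.4 and 573.7 in intact WT. It read 21.2 in Dscr1KO and 94.0 in WT at day 5, and 91.4 in Dscr1 Tg and 1130.4 in WT at day 7. No mutant sample came near the lower intact WT sample, and double KO replicate 2 lay below 3.6, the 20th percentile of all values. Cryab, the alpha crystallin that many tissues express, read 356.5 and 464.3 in double KO, 786.4 and 565.8 in Dscr1KO, 1491.4 and 1462.2 in ApoeKO, and 2462.3 and 2111.1 in intact WT. It read 1294.7 in Dscr1KO and 1181.4 in WT at day 5, and 912.1 in Dscr1 Tg and 2486.6 in WT at day 7. The 4 intact genotypes did not overlap in Cryab, and it remained bright on every array.

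Among the acidic beta crystallins, Cryba1 read 26.2 and 4.6 in double KO, 55.0 and 110.2 in Dscr1KO, 88 and 18.5 in ApoeKO, and 1416.0 and 1133.0 in intact WT. In sutured corneas Cryba1 read 28.5 in Dscr1KO and 75.8 in WT at day 5, and 219.6 in Dscr1 Tg and 1596.8 in WT at day 7. Its highest array was WT at day 7, and its 2 intact WT samples stood far above all 6 intact mutant samples. Cryba2, another acidic chain, read 16 and 4.6 in double KO, 20.7 and 50.6 in Dscr1KO, 30.7 and 17.3 in ApoeKO, and 313.0 and 247.6 in intact WT. After suturing Cryba2 read 6.3 in Dscr1KO and 35.6 in WT at day 5, and 67.3 in Dscr1 Tg and 391.0 in WT at day 7. The 2 day 5 samples were both low, and Dscr1 Tg lay between them and the day 7 WT sample. Cryba4 read 10.7 and 9.9 in double KO, 18.0 and 37.7 in Dscr1KO, 44.5 and 8.9 in ApoeKO, and 461.2 and 340.5 in intact WT. Sutured samples gave Cryba4 levels of 8.4 in Dscr1KO and 29.2 in WT at day 5, and of 96.9 in Dscr1 Tg and 241.5 in WT at day 7. For Cryba4 the day 7 WT sample stayed below both intact WT samples.

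Of the basic beta crystallins, Crybb2, a major beta crystallin of the adult lens, read 36.0 and 17.6 in double KO, 107.1 and 148.5 in Dscr1KO, 121.8 and 20.4 in ApoeKO, and 840.9 and 641.8 in intact WT. Its sutured samples read 32.7 in Dscr1KO and 95.7 in WT at day 5, and 146.0 in Dscr1 Tg and 832.0 in WT at day 7. The 2 ApoeKO libraries spread widely in Crybb2, and the higher of them lay among the Dscr1KO values. Crybb1 read 3.7 and 2.2 in double KO, 9.5 and 22.5 in Dscr1KO, 14.1 and 6.9 in ApoeKO, and 158.7 and 118.3 in intact WT. Crybb1 after suturing read 7.3 in Dscr1KO and 0.7 in WT at day 5, and 18.7 in Dscr1 Tg and 73.7 in WT at day 7. It was the one gene of the group that read higher in Dscr1KO than in WT at day 5 by over 1 log2 unit, in a range where its signals are very dim. That difference of 1.34 was 2.16 with a pseudocount of 1.2 and 0.68 with one of 10.2. Crybb3 read 19.6 and 7.2 in double KO, 3.4 and 28.7 in Dscr1KO, 28.7 and 14.1 in ApoeKO, and 351.2 and 242.3 in intact WT. Sutured samples read 19.0 in Dscr1KO and 34.4 in WT at day 5, and 39.1 in Dscr1 Tg and 195.9 in WT at day 7. The 3 mutant genotypes overlapped in Crybb3 and all lay below intact WT.

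The DNA before the start of these genes is shown because the members other than Cryab moved together, and because factors of the Maf family are known to activate crystallin genes through Maf sites near the start. RefSeq promoters (GRCm38.p6) were matched for 7 of the 8 genes, and the 250 bases before each start were searched on both strands. The Maf half-site TGCTGA, or TCAGCA on the other strand, was in 6 of the 7 and in 16.08% of 32851 promoters of that length. The TATA box TATAAA was in 2 of the 7, Cryba1 and Crybb1, and in 12.37% of all promoters. These motifs were chosen after the windows had been read, and a match is a description of letters only. In the 4 windows below, written 5′ to 3′ on the strand of the gene, capitals mark TGCTGA.
Cryaa, chr17:31677681-31677930, + strand: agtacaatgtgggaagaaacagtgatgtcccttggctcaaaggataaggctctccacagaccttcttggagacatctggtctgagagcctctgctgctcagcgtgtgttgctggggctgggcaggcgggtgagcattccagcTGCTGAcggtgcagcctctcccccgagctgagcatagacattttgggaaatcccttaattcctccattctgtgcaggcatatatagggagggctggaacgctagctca
Cryba1, chr11:77725294-77725543, - strand: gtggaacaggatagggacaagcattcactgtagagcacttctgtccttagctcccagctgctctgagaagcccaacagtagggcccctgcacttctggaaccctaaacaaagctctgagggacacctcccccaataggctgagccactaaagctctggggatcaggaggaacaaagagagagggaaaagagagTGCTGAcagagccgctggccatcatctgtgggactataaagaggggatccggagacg
Cryba4, chr5:112252519-112252768, - strand: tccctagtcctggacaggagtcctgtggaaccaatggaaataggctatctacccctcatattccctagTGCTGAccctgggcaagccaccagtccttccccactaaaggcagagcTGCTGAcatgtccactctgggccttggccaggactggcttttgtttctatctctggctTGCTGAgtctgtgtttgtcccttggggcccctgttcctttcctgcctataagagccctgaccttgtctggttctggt
Crybb1, chr5:112255570-112255819, + strand: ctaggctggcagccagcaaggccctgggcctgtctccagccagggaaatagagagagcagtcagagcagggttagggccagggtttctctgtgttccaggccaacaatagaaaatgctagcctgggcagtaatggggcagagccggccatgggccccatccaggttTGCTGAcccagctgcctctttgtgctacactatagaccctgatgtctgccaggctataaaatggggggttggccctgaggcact
In Cryaa the half-site began 108 bases before the start, and in Crybb1 it began 84 bases before. Cryba4 held 3 half-sites, at 182, 135 and 77 bases before its start. Cryba1 held 1 half-site at 57 bases before its start and the TATA box at 23 bases. Cryba4 and Crybb1 are neighbours on chromosome 5, lie on opposite strands and have starts 3302 bases apart. Crybb2 and Crybb3 are also neighbours on chromosome 5, on the same strand, with starts 11467 bases apart.

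Double KO was read against intact WT, where all 8 genes fell. Across all genes tested, 8.74% fell and 20.1% changed in either direction in this comparison. Cryba1 fell by 6.34 ± 0.77 on the log2 scale (SE, n = 2 against 2, limma, adjusted p = 0.00183), and Cryaa by 5.86 ± 0.63 (limma, adjusted p = 0.00125). The other beta crystallins had changes between -4.85 in Cryba4 and -4.22 in Crybb3, with adjusted p between 0.00092 and 0.00637. Cryab had the smallest change of the 8, at -2.48 ± 0.21, and the lowest adjusted p, 0.000464 (limma). The median change was -4.57 over the group and -0.02 over all genes tested. The 2 genotypes did not overlap in any of the 8 genes. How many of all genes tested were without overlap was not counted, here or below, so such counts are description only. Without WT replicate 1, Crybb3 missed the threshold (change -3.96, limma, adjusted p = 0.0558).

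In Dscr1KO against intact WT, 7 of the 8 genes passed, all lower in Dscr1KO. Of all genes tested, 3.9% fell and 11.8% changed in either direction. Xist, a transcript high in females, read 4104.0 and 5385.2 in Dscr1KO, against 14.9 and 8.9 in intact WT. Sex and genotype thus cannot be told apart here, and Dscr1KO replicate 2 carries the doubtful label given above. Crybb3 fell by 4.30 ± 0.71 (limma, adjusted p = 0.00987) and Cryba1 by 3.96 ± 0.77 (limma, adjusted p = 0.0172). Cryba4 changed by -3.74, Cryaa by -3.03, Cryba2 by -2.96 and Crybb1 by -2.93, with adjusted p between 0.00699 and 0.0225. Cryab fell by 1.77 ± 0.21 (limma, adjusted p = 0.00281), and Crybb2 missed the threshold at -2.51 ± 0.68 (adjusted p = 0.0535). The median was -2.99 over the group and -0.03 over all genes. Without both libraries of doubtful label, with a single Dscr1KO array left, changes ran from -5.40 in Crybb3 to -1.53 in Cryab. Cryaa, at -3.46, then missed the threshold. With either intact WT sample left out 1 gene passed, Cryab. The library labelled Dscr1KO replicate 2 had Gapdh and Actb ratios of 3′ over 5′ signal of 2.909 and 3.583, against 1.009 to 1.641 and 1.403 to 2.5 on the other 11 arrays, and 7 of the 8 genes read higher there than in Dscr1KO replicate 1.

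In ApoeKO against intact WT, none of the 8 genes passed limma's test with a spread shared over the 4 intact groups. Xist read 4622.1 and 4598.0 in ApoeKO, against 14.9 and 8.9 in intact WT, so sex and genotype cannot be told apart here either. In that comparison 0.0236% of all genes tested passed, 3 in number. At an unadjusted p under 0.05, all 8 members and 477 of all genes lay in this comparison. Changes ran from -0.63 ± 0.21 in Cryab (limma, adjusted p = 0.978) to -4.82 ± 0.77 in Cryba1 (adjusted p = 0.184). Cryaa had -4.51 (adjusted p = 0.128) and Crybb1 -3.37 (adjusted p = 0.11). The others changed by -4.03 in Cryba4, -3.75 in Crybb2, -3.63 in Crybb3 and -3.40 in Cryba2, with adjusted p between 0.149 and 0.372. The genotypes did not overlap in any of the 8 genes, a count with no share of all genes beside it. The median was -3.69 over the group and -0.01 over all genes. With only the ApoeKO and WT arrays in the fit, all 8 passed, with adjusted p between 0.000321 and 0.0405 (limma). How many of all genes passed in that fit was not counted, so these 8 calls have no share to be set against. Without both libraries of doubtful label, with a single ApoeKO array left, Cryba4 changed by -5.00 and Crybb2 by -4.94.

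**Figure D2:**
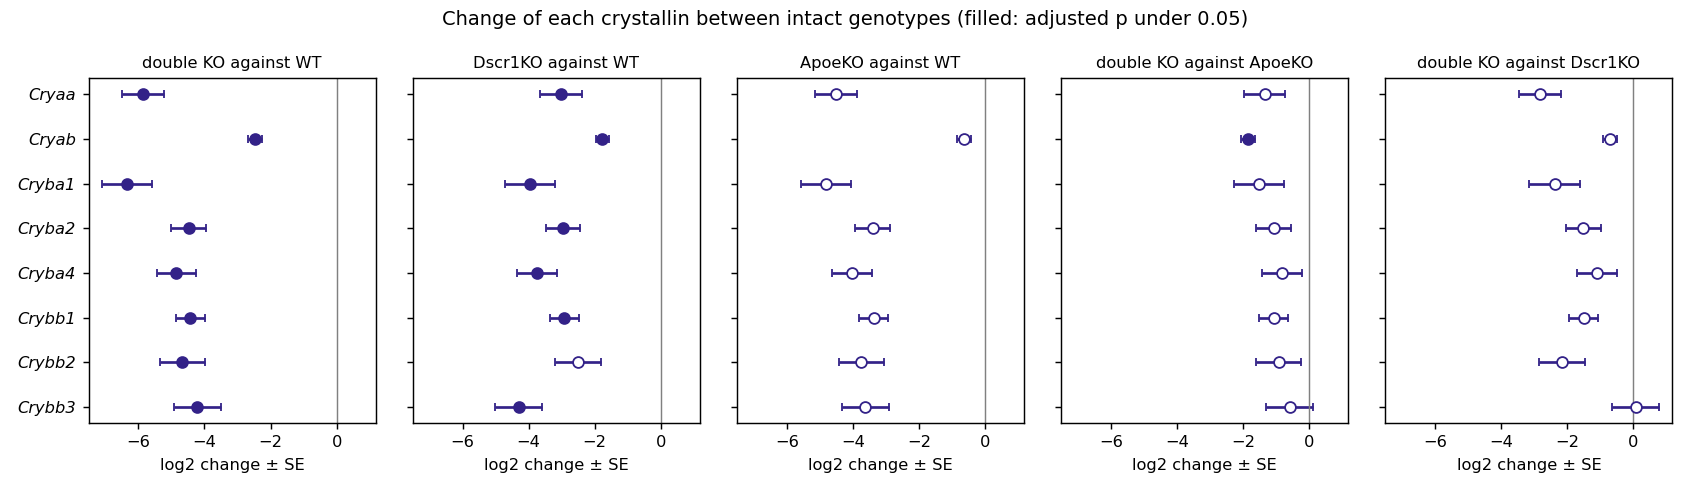
Log2 change ± SE (limma) of each crystallin in 5 comparisons between intact genotypes of 2 samples each, with filled points past an adjusted p of 0.05. All 8 points are filled in double KO against WT, 7 in Dscr1KO against WT, 0 in ApoeKO against WT, and Cryab alone in double KO against ApoeKO.

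Adding the loss of Dscr1 to that of Apoe was read from double KO against ApoeKO. Cryab fell by 1.85 ± 0.21 (limma, adjusted p = 0.00168), and the 7 other genes did not pass, with changes from -1.53 in Cryba1 to -0.60 in Crybb3 and adjusted p from 0.129 to 0.596. Of all genes tested, 19.6% passed here and 8.61% fell. The 2 genotypes overlapped in 5 of the 8 genes, namely Cryaa, Cryba1, Cryba4, Crybb2 and Crybb3, again without a count over all genes. Leaving out both libraries of doubtful label kept Cryab past the threshold (change -1.84, adjusted p = 0.00737), and turned Cryba4 to 0.15 and Crybb2 to 0.27, neither of which passed. Without ApoeKO replicate 2, Crybb2 also passed (change -2.11, adjusted p = 0.0473), and without double KO replicate 1, Cryaa did (change -2.34, adjusted p = 0.036).

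Adding the loss of Apoe to that of Dscr1 was read from double KO against Dscr1KO, where 0 of the 8 genes passed limma's test, 6 had an unadjusted p under 0.05, and 0.0236% of all genes tested passed. Cryaa had the lowest change, -2.83 ± 0.63 (adjusted p = 0.31), and Crybb3 the highest, 0.07 ± 0.71 (adjusted p = 0.977). The others changed by -2.39 in Cryba1, -2.16 in Crybb2, -1.52 in Cryba2, -1.51 in Crybb1, -1.10 in Cryba4 and -0.71 in Cryab. Without both libraries of doubtful label 0 genes passed, and the changes ran from -2.40 in Cryaa to 1.18 in Crybb3 (adjusted p = 0.42), with Cryba4 at -0.64. Double KO lay below Dscr1KO without overlap in 7 of the 8 genes, all but Crybb3, but overlap was not counted over all genes tested. With 0 calls in this comparison, that count is no result about the group. The interaction of both losses asks whether the change with Dscr1 loss differs with and without Apoe. It passed for 0 of the 8 genes (limma), with 4 at an unadjusted p under 0.05, and for 0.00787% of all genes tested. Its value was 3.70 ± 1.01 for Crybb3 (adjusted p = 0.549), 2.92 ± 0.85 for Cryba4 (adjusted p = 0.551) and -0.08 ± 0.29 for Cryab (adjusted p = 0.96). For the other 5 genes it ran from 1.59 in Crybb2 to 2.43 in Cryba1. Without both libraries of doubtful label it was 5.24 for Crybb3 (adjusted p = 0.156), 4.36 for Cryba4 (adjusted p = 0.0763) and -0.31 for Cryab, and 0 genes passed. A positive value here means that Dscr1 loss went with a smaller drop in mice that also lacked Apoe. Several genes were already dim in ApoeKO, where replicates 1 and 2 read 14.1 and 6.9 in Crybb1, 28.7 and 14.1 in Crybb3, and 44.5 and 8.9 in Cryba4. Array medians lay between 15.6 and 21.1. With a pseudocount, such low levels have a floor and little room for a further log2 drop. Crybb2 had more room in replicate 1, at 121.8. The part of this floor in the positive values was not tested. These comparisons share samples, so their values are set side by side without a measure of likeness between them.

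Replicates of the mutant genotypes differed widely in several of these genes. The median gap between replicates over all genes tested was 0.30 log2 units in double KO, 0.40 in Dscr1KO, 0.16 in ApoeKO and 0.16 in WT. In ApoeKO, replicate 1 read above replicate 2 in all 8 genes, by 2.39 log2 units in Crybb2, 2.05 in Cryba1, 1.94 in Cryba4 and 0.03 in Cryab. In double KO, replicate 1 read above replicate 2 in 7 genes, by 1.98 in Cryaa and 1.86 in Cryba1, and below it in Cryab. In WT the gaps ran from 0.22 in Cryab to 0.53 in Crybb3, all with replicate 1 higher. In Dscr1KO the order was the opposite, with replicate 1 below replicate 2 in 7 genes, at differences from -2.21 in Crybb3 to -0.46 in Crybb2, and above it in Cryab by 0.47. Cryab had the smallest gap in ApoeKO and in WT, whereas Cryba4 had it in double KO (0.08) and Crybb2 in Dscr1KO.

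Suturing was tested over 7 arrays with a term for Dscr1 genotype, and 0 of the 8 genes passed limma's test, as did 0 of the 12706 genes tested, a share of 0%. At an unadjusted p under 0.05, 1 of the 8 genes, Cryba4, and 1251 of all genes lay in this comparison. Cryba4 had a change of -1.82 ± 0.68 (adjusted p = 0.475) and Cryab one of 0.14 ± 0.37 (adjusted p = 0.927). Without Dscr1KO replicate 2, the library of doubtful label in this fit, 0 genes passed, with Cryba4 at -1.72 and Cryab at -0.035. The sutured arrays differed widely among themselves, as the following single arrays show, none of which can be tested.

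In WT corneas at day 7 against day 5 after suturing, 7 of the 8 genes were higher by over 2 log2 units, a size reached upward by 0.331% of all genes tested and in either direction by 0.661%. The differences were 4.33 in Cryba1, 4.17 in Crybb1, 3.54 in Cryaa, 3.33 in Cryba2, 3.07 in Crybb2, 2.90 in Cryba4 and 2.39 in Crybb3, and 1.07 in Cryab. Crybb1 read 0.7 at day 5, and its difference was 5.30 with a pseudocount of 1.2 and 2.94 with one of 10.2. Relative to the intact WT mean, Cryaa stood at 13.7% at day 5 and 164.3% at day 7, Cryba1 at 5.95% and 125.3%, and Cryab at 51.7% and 108.7%. Over the 8 genes the day 7 level had a median of 110.4% of the intact WT mean and ran from 53.2% in Crybb1 to 164.3% in Cryaa.

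The 6 measured gamma crystallins, the other large family of lens crystallins, had a median of 26.9% of the intact WT mean at day 7. They ran from 8.7% in Cryga to 129.9% in Crygn, a gene whose intact WT mean was only 13.4. Crygb stood at 30.7%, Crygd at 23.2%, Crygf at 13.2% and Crygs at 81.5%. At day 7 Cryaa, Cryba1, Cryba2, Cryab and Crygn lay above both intact WT samples. Cryba4, Crybb1, Crybb3, Cryga, Crygb, Crygd, Crygf and, narrowly, Crygs lay below both, and Crybb2 lay between them. This rests on 1 array, and the difference between the families was not tested.

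**Figure D3:**
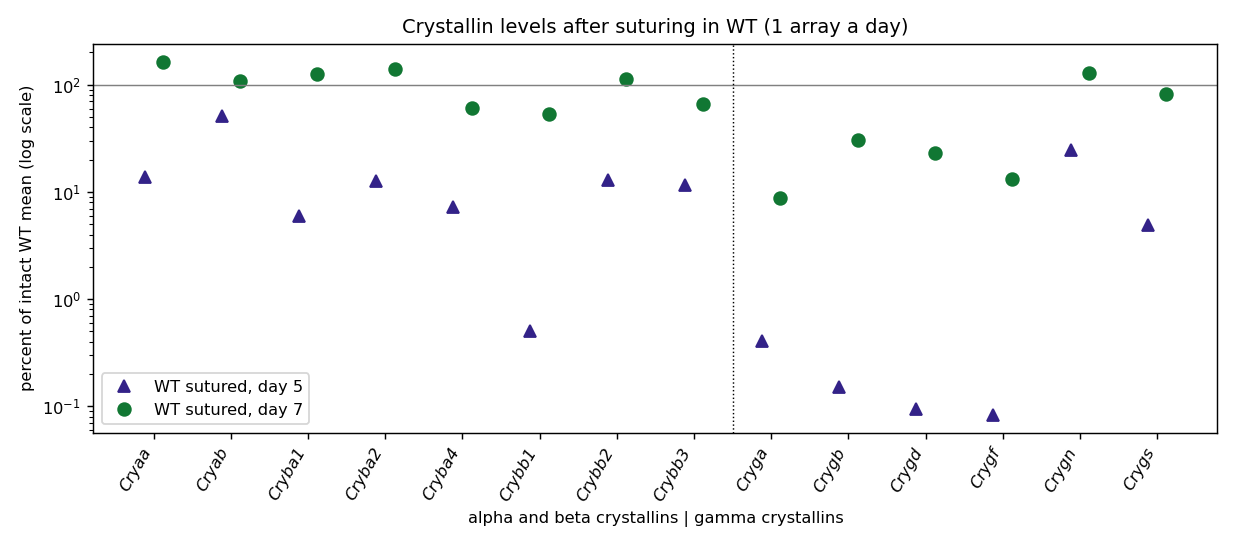
Level of each alpha, beta and gamma crystallin in WT corneas 5 and 7 days after suturing, as percent of the mean of 2 intact WT samples (log axis, 1 array a day, line at 100%). At day 7 the alpha and beta crystallins lie between 53.2% and 164.3%, and Cryga, Crygb, Crygd and Crygf between 8.7% and 30.7%.

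In Dscr1 Tg, 5 of the 8 genes were lower than in WT at day 7 by over 2 log2 units. That size was reached downward by 0.331% and in either direction by 0.401% of all genes tested. The Rcan1 probe set used read 548.3 in Dscr1 Tg and 579.7 in WT, and so showed no excess in the transgenic sample. The differences were -3.58 in Cryaa, -2.84 in Cryba1, -2.48 in Crybb2, -2.48 in Cryba2 and -2.22 in Crybb3. They were -1.79 in Crybb1, -1.44 in Cryab and -1.29 in Cryba4. Markers of other cells differed in the same pair in both directions, and 7408 of all 12706 genes tested were lower. Of the corneal epithelium genes, 9 of 10 were higher (median 0.21), as were 7 of 11 keratinised epithelium genes (median 0.43). The 8 corneal stroma genes were all lower (median -0.56). The 8 pigment cell and iris genes, 3 of them past 2 log2 units, were all lower (median -1.38), with a summed intensity of 246.6 in Dscr1 Tg and 836.4 in WT. The 8 blood vessel endothelium genes were all lower too (median -1.12), with sums of 260.8 in Dscr1 Tg and 685.0 in WT. Their part in the result was not tested. Since the WT array of this pair is one of the 3 bright ones, the same array enters both this comparison and that of day 7 with day 5. At day 5, Dscr1KO against WT gave 0 of the 8 genes past 2 log2 units, against 0.63% of all genes tested. Cryba2 and Cryaa came near it at -1.99 and -1.98, Crybb1 was at 1.34, and Cryab at 0.13. A pseudocount of 1.2 put 3 genes past 2 units and quantile normalization put 2 past it. In this day 5 pair the pigment cell and blood vessel lists went the other way from the day 7 pair, and 7152 of all 12706 genes tested were higher. All 8 pigment cell and iris genes (median 1.58) and all 8 blood vessel endothelium genes (median 1.68) were higher in Dscr1KO. Of the 8 crystallins, 6 were lower there.

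Among the dim samples, the genes other than Cryab were by median more alike with each other than with Cryab, but pairs differed widely. Because the arrays fall into 3 bright and 9 dim ones, correlations are given within the 9 dim arrays, as a description, and all of these share the authors' scaling and the genotype groups. Over the 21 pairs of the 7 genes, Pearson's r had a median of 0.633 and ran from 0.243 to 0.937. Over the 7 pairs with Cryab the median was 0.172, from 0.14 to 0.279. Cryab had an r of 0.235 with the mean of the other 7 genes. Its low values were in double KO and Dscr1KO, whereas in ApoeKO it read 1491.4 and 1462.2 while the mean log2 level of the other 7 genes was 5.53 and 4.16, against 4.33 and 3.25 in double KO and 4.88 and 5.96 in Dscr1KO. Without both libraries of doubtful label, over 7 arrays, r over the 21 pairs had a median of 0.571 and ran from 0.032 to 0.944. Over the 7 pairs with Cryab it had a median of 0.249 and ran from 0.138 to 0.433. These ranges overlapped.

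**Figure D4:**
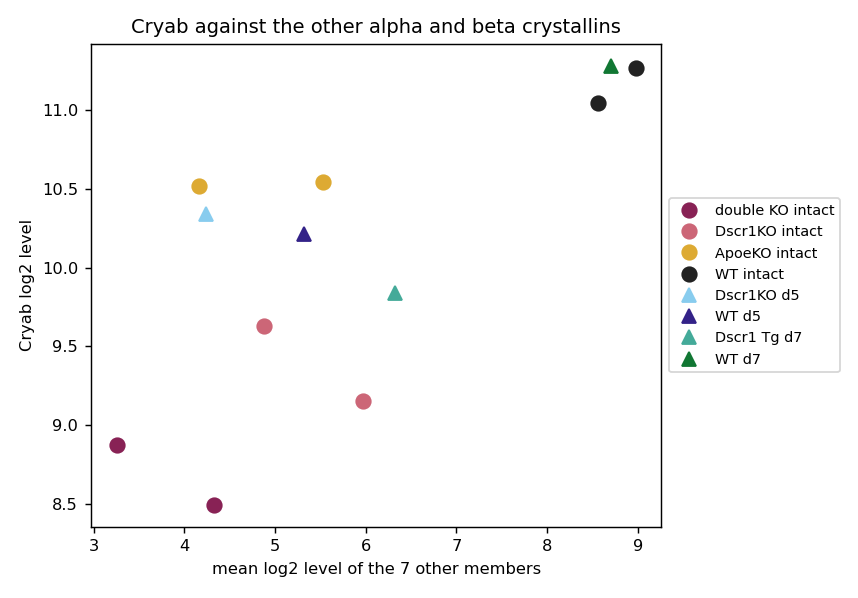
Cryab log2 level against the mean log2 level of the other 7 alpha and beta crystallins on 12 arrays, circles for intact and triangles for sutured corneas. WT intact and WT at day 7 lie at the upper right, and among the 9 other arrays Cryab is highest in ApoeKO and lowest in double KO, with the other genes at 5.53 and 4.16 in ApoeKO and 4.33 and 3.25 in double KO.

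By likeness over all 12 arrays (Pearson's r of log2 levels, which here rests largely on the split into bright and dim arrays), the genes closest to the mean of the 8 were mostly lens genes. They were Crygs at 0.989, Grifin at 0.929, Crygd at 0.929, Lim2 at 0.923, Mip at 0.907, Crygf at 0.889, Sat2 at 0.888, Crygb at 0.888, Cep72 at 0.885 and Bfsp1 at 0.884. Crygs encodes a gamma crystallin of the mature lens, Lim2 and Mip encode membrane proteins of lens fibres, and Bfsp1 encodes a beaded filament protein. Within the 9 dim arrays, Crygs had an r of 0.995 with the mean of the 7 genes other than Cryab, the highest of all tested genes outside the group. Cryab had other nearest genes: Rnaset2a at 0.955, Cyp2r1 at 0.952, Tstd3 at 0.951, Rps4l at 0.95 and Colgalt2 at 0.944, all over 12 arrays. For Cryaa they were Crygs at 0.975, Grifin at 0.874, Bcam at 0.871, Lim2 at 0.851 and Alkbh6 at 0.845.

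Other lens genes were low where the alpha and beta crystallins were low. Of the 4 gamma crystallins tested, 4 fell in double KO against WT (median change -7.25), 4 in Dscr1KO (median -7.79) and 3 in ApoeKO (median -6.16). Crygb read 21.2 and 9.0 in double KO, 12.7 and 2.9 in Dscr1KO, 50.6 and 14.8 in ApoeKO, and 3146.8 and 2043.6 in intact WT. Its mutant levels were all below those of either intact WT sample by a wide margin. Of the 6 lens fibre genes tested, 5 fell in double KO (median -2.29), 2 in Dscr1KO (median -1.74) and 0 in ApoeKO (median -1.66, 4 at an unadjusted p under 0.05). Mip, the water channel of lens fibres, read 3.7 and 5.4 in double KO, 6.4 and 8.9 in Dscr1KO, 21.2 and 1.8 in ApoeKO, and 46.6 and 50.5 in intact WT. Tdrd7, an RNA granule protein that other tissues also make, kept levels of 340.2 and 217.9 in double KO and 318.6 and 158.2 in Dscr1KO, against 464.0 and 491.3 in ApoeKO and 447.9 and 477.2 in intact WT. With all libraries in the fit, 8.74% of all genes tested fell in double KO, 3.9% in Dscr1KO and at most 0.0236% in ApoeKO. Crygd, Crygf, Mip and Bfsp2 passed the filter on low values only through their high WT arrays. Without both libraries of doubtful label, median changes of the fibre genes were -2.29 in double KO, -2.03 in Dscr1KO and -2.21 in ApoeKO. Those of the gamma crystallins were -7.25, -7.48 and -6.96. The gamma crystallins tested and 5 of the 6 fibre genes were thus lower than intact WT on all 6 mutant arrays, and their part in the result was not tested.

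**Figure D5:**
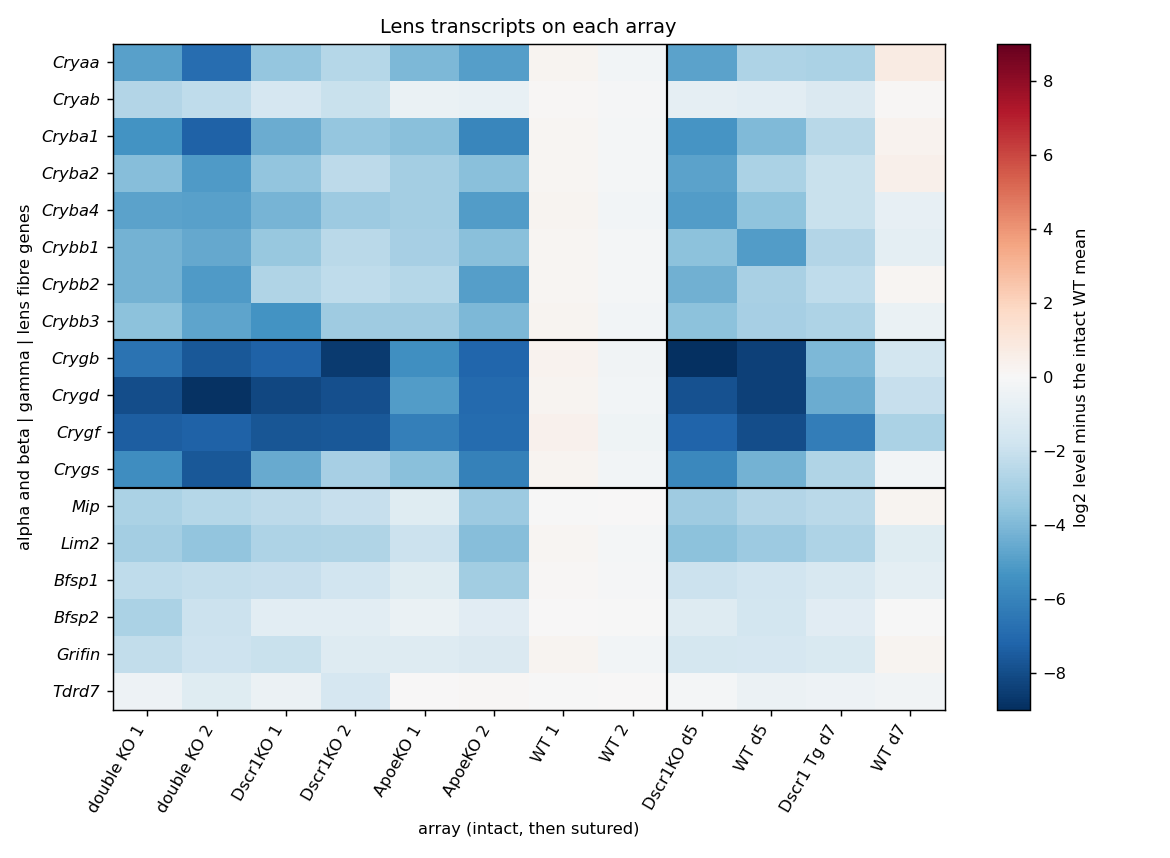
Log2 level minus the intact WT mean (colour) of the tested alpha and beta, gamma and lens fibre genes on each of 12 arrays, intact then sutured. Every row of the first 2 blocks other than Cryab is blue, thus lower, in the 6 intact mutant samples and in 3 of the 4 sutured ones, and near white for intact WT, while Cryab is paler.

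Of 6 lens transcription factors tested, 2 rose and 0 fell in double KO against WT and in Dscr1KO against WT. In both they were Sox2 and Maf, factors known to act in the lens. Sox2 passed the filter on low values only through its high intact double KO and Dscr1KO arrays, so its calls are description only. Over all 12706 genes tested, 1445 rose and 1110 fell in double KO, and 999 rose and 496 fell in Dscr1KO. Sox2, a partner of Pax6 in early lens, read 264.1 and 286.0 in double KO and 280.7 and 368.9 in Dscr1KO, against 1.1 and 3.9 in ApoeKO and 6.1 and 0.4 in intact WT. Maf, which activates crystallin genes in lens fibres, rose by 1.52 ± 0.21 in double KO (limma, adjusted p = 0.003) and by 0.86 ± 0.21 in Dscr1KO (adjusted p = 0.038), a call lost without both libraries of doubtful label (change 1.02, adjusted p = 0.0708). It read 496.2 and 626.4 in double KO, 393.0 and 312.0 in Dscr1KO, 207.0 and 175.9 in ApoeKO, and 214.7 and 171.5 in intact WT. Pax6, the factor that sets up the eye and is also active in corneal epithelium, had changes of -1.20 in double KO (adjusted p = 0.0614) and -1.02 in Dscr1KO (adjusted p = 0.122) against WT. It fell by 1.34 in double KO against ApoeKO (limma, adjusted p = 0.0434), and without both libraries of doubtful label also in double KO against WT (change -1.20, adjusted p = 0.015). Six3, Mafg and Meis1 had changes of 1.34, 0.63 and -0.74 in double KO against WT, with adjusted p between 0.089 and 0.221. Without both libraries of doubtful label, Mafg too passed in double KO against WT, at the same change of 0.63.

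Small heat shock proteins related to the alpha crystallins gave calls in both directions. Of 5 tested, Hspb8 rose and Hspb11 fell in double KO against WT, and Hspb8 rose in Dscr1KO. Of all genes tested, 20.1% changed in double KO and 11.8% in Dscr1KO. Hspb6 had a change of 0.45 in double KO (adjusted p = 0.441). Hspb8, a chaperone that works with Bag3, read 260.2 and 192.1 in double KO and 140.3 and 197.5 in Dscr1KO, against 16.2 and 11.6 in ApoeKO and 13.9 and 9.1 in intact WT. Hspb8 was thus high in the intact groups in which Cryab was lowest. Hspb1, an abundant small heat shock protein of epithelium, read 3485.9 and 2700.9 in double KO and 5075.2 and 4216.9 in intact WT (change -0.59, limma, adjusted p = 0.0508). Of 9 heat shock chaperones tested, 1 fell in double KO and 0 changed in Dscr1KO or ApoeKO (limma, 2, 2 and 0 at an unadjusted p under 0.05). Genes that carry the crystallin name without being lens alpha, beta or gamma crystallins gave 2 falls among 6 tested in double KO, Crybg1 (-1.08) and Crybg2 (-1.21), and 0 calls in Dscr1KO and ApoeKO.

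Of 10 tested genes that lie beside a member, 2 fell and 1 rose in double KO against WT, 1 rose in Dscr1KO and 0 passed in ApoeKO (limma), with changes in double KO between -1.16 and 1.04. These counts lie near the shares of all genes, 20.1% in double KO and 11.8% in Dscr1KO, and the 1 in Dscr1KO became 0 without both libraries of doubtful label. The 2 that fell were 2310030G06Rik beside Cryab (-1.16) and 2900026A02Rik beside Crybb3 (-1.01). Their falls were smaller than those of the crystallins they adjoin. Hspb2, the neighbour of Cryab and itself a small heat shock protein, stayed between 14.4 and 27.7 on all 12 arrays. U2af1, a splicing factor beside Cryaa, read 849.1 and 1021.0 in double KO against 853.1 and 760.1 in intact WT. Nufip2, beside Cryba1, read 296.0 and 275.0 in double KO against 276.9 and 320.6 in intact WT. Tpst2, a tyrosylprotein sulfotransferase next to Crybb1, read 70.5 and 79.1 in double KO against 54.0 and 45.8 in intact WT. At the other probe sets of Cryab, the second brightest gave changes of -2.37 in double KO, -2.30 in Dscr1KO and -1.0 in ApoeKO against WT. The dimmest one lay between 0.9 and 10.2 on all arrays.

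Markers of other cells moved with the same groups. Summed over 11 genes of keratinised epithelium, intensities lay between 38988.0 and 43359.3 in double KO and between 22339.2 and 43768.9 in Dscr1KO, against 2791.3 to 3760.1 in ApoeKO and 2133.1 to 2392.5 in intact WT. The 9 conjunctival and goblet cell genes summed to between 15510.5 and 19500.2 in double KO and 16088.5 and 20955.3 in Dscr1KO, against 2797.2 to 3334.6 in ApoeKO and 2034.3 to 2288.9 in intact WT. The 8 pigment cell and iris genes measured summed to between 338.8 and 658.8 in double KO and 338.3 and 421.4 in Dscr1KO, against 766.3 to 900.1 in ApoeKO and 827.5 to 957.1 in intact WT. Blood vessel endothelium genes, 7 of 8 higher by the test in both double KO and Dscr1KO, summed to between 1215.3 and 1336.6 in double KO and 1036.1 and 1763.3 in Dscr1KO, against 101.9 to 117.3 in ApoeKO and 101.2 to 127.0 in intact WT. The 7 corneal endothelium genes measured, 2 of them called lower in both, summed to between 2652.9 and 3707.8 in double KO and 2590.0 and 4662.5 in Dscr1KO, against 5982.0 to 6365.7 in ApoeKO and 6872.6 to 7557.2 in intact WT. In double KO and Dscr1KO against WT, 1445 and 999 of all 12706 genes tested rose, and 1110 and 496 fell. In ApoeKO the sums of these 5 lists thus lay nearer those of intact WT than those of double KO. By contrast, 7 of the 8 crystallins in ApoeKO lay far below intact WT. The 11 photoreceptor genes measured summed to 4719.4 in double KO replicate 1 and 75.3 in replicate 2. Xist, the transcript of the inactive X chromosome in females, read 4256.9 and 19.6 in the 2 double KO samples and between 4104.0 and 5385.2 in the 4 samples labelled Dscr1KO or ApoeKO that were intact, and at most 14.9 in WT and in sutured corneas. Both intact WT samples were low in Xist, at 14.9 and 8.9. Sex, as read from Xist, and genotype thus cannot be told apart where Dscr1KO or ApoeKO is compared with intact WT. The part of these markers in the results was not tested.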

How the data were processed

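Affymetrix arrays with 45101 probe sets measured RNA of 12 samples of whole mouse cornea. Per the labels, RNA was purified on RNeasy columns and 100 ng made into biotinylated cRNA. The authors deposited linear intensity values, scaled on each array, with a mean of 100 here after trimming; the sources used here do not name the software. Groups follow the labelled genotype, treatment and day. The platform table gives 1 symbol to 34958 probe sets, several to 932 and none to 9211, and only the first were used. Members and gene lists were chosen with earlier results of these data known. Genes were named by a rule that takes all members, the 3 brightest genes of other lists, tested lens transcription factors, small heat shock proteins and genes with crystallin names, neighbouring genes and the nearest genes by Pearson's r; where the text gives a range or count, not each is named.

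Genes with a mean log2(intensity + 3.6) at or above the 40th percentile of probe sets, which is 3.71, were tested. One limma model (limma 3.58.1, R 4.3.3) held the 4 intact genotypes, moderated by eBayes with trend, and p-values were adjusted by Benjamini-Hochberg over all 12706 genes, with 0.05 as threshold. The fit was tested on simulated data. Suturing was fitted on 7 arrays. The number of arrays limits the precision. Pairs of single sutured arrays were compared without a test, with 2 log2 units as the size that counts. Promoters are from RefSeq (GRCm38.p6). Alternatives were other filters and pseudocounts, quantile normalization, no intensity trend, the mean over probe sets, only the groups compared, a replicate block, each array left out in turn and no libraries of doubtful label. The correlations within 9 and 7 arrays, and the list counts without the libraries of doubtful label, were added after the data were seen.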

Additional observations from a re-analysis of the deposited data

How the results depend on the processing

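Over the alternatives run, calls of the group in double KO against WT stayed between 7 and 8 genes, always lower. In Dscr1KO against WT the count of 7 ran from 1 to 8 with 1 array left out, with 1 when either intact WT sample was missing. In ApoeKO against WT the count of 0 became 2 without both libraries of doubtful label and 8 with only the groups compared, and ran from 0 to 2 with 1 array left out. In double KO against ApoeKO it was 1, and from 1 to 2 with 1 array left out. For Dscr1KO against WT at day 5 the count past 2 log2 units was 2 with quantile normalization and 3 with a pseudocount of 1.2. The cause of these shifts was not tested, and the fits with arrays left out also hold fewer samples. No value of a single gene that changed sign passed the threshold with the changed sign. In double KO against ApoeKO, Cryba4 became 0.15 and Crybb2 0.27 without both libraries of doubtful label and without ApoeKO replicate 1; with 1 array left out they ran from -1.79 to 0.15 and from -2.11 to 0.27. In double KO against Dscr1KO, Crybb3 became -0.014 with a pseudocount of 10.2, and ran from -1.03 to 1.18 with 1 array left out. The Cryab interaction became 0.029 with quantile normalization and 0.40 with the mean over probe sets, and ran from -0.32 to 0.15 with 1 array left out. Its suturing change became -0.41 in WT arrays only, and ran from -0.41 to 0.54 with 1 array left out; that of Crybb3 ran from -1.76 to 0.011. Of the other single-gene values, 1005 stayed on their side, 24 came to pass, 14 ceased to pass and 6 untested ones moved. The replicate numbers did not pair the samples, with correlations of deviations between -0.046 and 0.074 over 12706 genes; with them as a block, double KO against WT kept 8 calls and Dscr1KO against WT had 8, with Crybb2 at -2.51 (limma, adjusted p = 0.0407).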
